A study of Mus musculus with 4 samples.

Results

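The subunits of the BAF complex that are exchanged when neural progenitors become neurons were followed in 2 populations of dorsal spinal cord cells. The members are 10 genes, taken from the 18193 genes that have a probe set with a single gene symbol on the array: the progenitor subunits Actl6a, Phf10 and Ss18, the neuronal subunits Actl6b, Dpf1, Dpf3 and Ss18l1, the ATPases Smarca4 and Smarca2, and the core subunit Smarcc1. They are taken by name, and each is represented by its brightest probe set by the mean over the 4 arrays. All 10 passed the filter on dim probe sets that left 12740 genes for testing.

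Cells were sorted by GFP from mouse neural tubes at E10.5 (mid-gestation), dissected between forelimb and hindlimb levels. Embryos carried either the Atoh1BAC-GFP transgene, a bacterial artificial chromosome that places GFP in the Atoh1-derived cells of dorsal interneuron 1 (dI1), or the dNeurog1-GFP transgene, in which an enhancer of Neurog1 places GFP in dorsal interneuron 2 (dI2). All 4 samples came from mixed B6SJLF1 and ICR strains, and each transgene was measured on 2 arrays, 1 for each biological replicate. The protocol separated GFP-positive from GFP-negative cells, and which of these the arrays hold is not said outright in the labels. The number and sex of the embryos are not given there either.

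BAF is a chromatin remodelling complex that uses ATP to move or evict nucleosomes, and it is the mammalian relative of the yeast SWI/SNF complex. In the developing nervous system its composition depends on the stage of the cell: proliferating progenitors assemble it with Actl6a (BAF53a), Phf10 (BAF45a) and Ss18, and postmitotic neurons with Actl6b (BAF53b), Dpf1 or Dpf3 (BAF45b and BAF45c) and Ss18l1 (CREST). The ATPase, Smarca4 (BRG1) or Smarca2 (BRM), and core subunits such as Smarcc1 (BAF155) are needed in either form.

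The promoters of Actl6a and Actl6b, which encode the exchangeable actin-related subunit, are shown because this was the pair whose ratio differed most between the populations. Each line gives the 250 bases before the annotated start, 5′ to 3′ on the plus strand, from RefSeq on build GRCm38.p6: chr3:32708296-32708545 for Actl6a and chr5:137553296-137553545 for Actl6b. Capitals mark the E-box CANNTG, the general recognition motif of basic helix-loop-helix factors such as Atoh1 and Neurog1, which reads the same on both strands.
Actl6a: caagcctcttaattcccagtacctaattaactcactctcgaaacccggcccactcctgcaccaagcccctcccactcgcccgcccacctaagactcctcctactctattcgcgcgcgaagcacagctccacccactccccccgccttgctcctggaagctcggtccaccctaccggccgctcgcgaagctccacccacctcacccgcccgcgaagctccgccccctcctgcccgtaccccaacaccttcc
Actl6b: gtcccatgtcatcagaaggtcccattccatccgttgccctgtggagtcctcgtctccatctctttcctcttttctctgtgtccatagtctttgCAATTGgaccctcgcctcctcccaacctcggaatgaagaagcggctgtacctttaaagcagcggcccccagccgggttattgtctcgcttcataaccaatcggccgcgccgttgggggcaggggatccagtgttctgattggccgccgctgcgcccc
The Actl6b window held 1 E-box and the Actl6a window 0. Of the members, 9 had an entry in the promoter table, and 5 of these held an E-box in any of their windows. Of all 32851 windows of this length, 21753 (66.2%) did. The count of members is per gene and the share of windows is per window, so they are not measured alike. Such a match describes the letters of the window only, and binding was not measured on these arrays.

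The marker genes followed the labels of the 2 transgenic lines. Signals are MAS5 intensities brought to a common trimmed mean, and a difference is Atoh1-GFP minus dNeurog1-GFP on the log2(signal + 32) scale, which understates the change of dim genes. Atoh1, whose basic helix-loop-helix protein specifies dI1, was higher in Atoh1-GFP cells by 3.48 (limma adjusted p = 0.0042, n = 2 arrays per group), and Neurog1, the corresponding factor of the dI2 domain, had a difference of -3.19 (limma adjusted p = 0.021). It is not known from the sources whether transgene RNA is also read by the Atoh1 probe set. With the replicate number in the model, all 5 dI1 markers were called higher in Atoh1-GFP cells and 4 of the 5 dI2 markers higher in dNeurog1-GFP cells, and without it 4 and 3 of them were. The deposited signals had a trimmed mean of 250.001 on both replicate 1 arrays and of 500.003 on both replicate 2 arrays. The scaling of the deposited values thus follows the replicate number, and each result is also given within that number. The labels name no batch. After rescaling, the median signal over all probe sets was still higher on the replicate 1 arrays (138 for Atoh1-GFP and 115 for dNeurog1-GFP) than on the replicate 2 arrays (75.97 and 75.4).

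None of the 10 BAF members passed the threshold of an adjusted p under 0.05 (limma with Benjamini-Hochberg adjustment over all genes) between the populations, with or without the replicate number as a block. Among all genes tested, 28 of 12740 (0.22%) passed without the block and 829 (6.51%) with it, so a count of 0 among 10 is near the background in either model. At an unadjusted limma p under 0.05 the members numbered 0 without the block, where 8.59% of all genes were under it, and 2 with it, Phf10 and Actl6b, where 22.5% of all genes were, so these counts too are near the background. A missed threshold does not show that the 2 populations hold equal amounts, and the 95% intervals below give the range of differences that the arrays allow. In sorted bulk samples, fewer cells that express a subunit and less RNA per cell cannot be told apart.

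**Figure D1:**
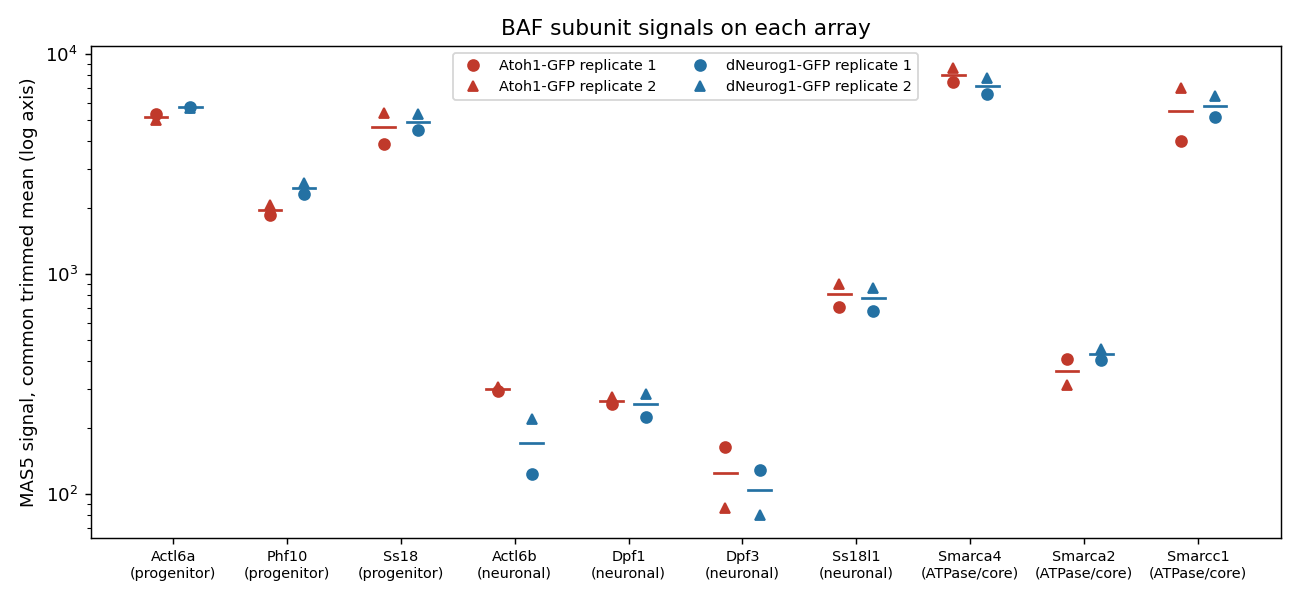
Signal of each BAF member on the 4 arrays (log axis, MAS5 signal at a common trimmed mean), with circles for replicate 1, triangles for replicate 2 and a bar at the arithmetic mean of each group. The arrays of the 2 populations do not overlap for Actl6b, Phf10 and Actl6a, and they overlap for the other members. Heights of different genes come from different probes and are not to be compared.

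The 3 progenitor subunits were each lower on average in Atoh1-GFP cells, by small amounts. Actl6a, an actin-related protein that is part of the progenitor complex, had signals of 5322 (replicate 1) and 5024 (replicate 2) in Atoh1-GFP cells, against 5747 and 5681 in dNeurog1-GFP cells. Both Atoh1-GFP arrays lay under both dNeurog1-GFP arrays. The difference was -0.14 (standard error 0.19, 95% interval -0.58 to 0.30, limma adjusted p = 1.00), with -0.11 within replicate 1 and -0.18 within replicate 2, and the block gave an adjusted p of 0.51.

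Phf10, a PHD-finger subunit that binds the complex to modified histones in progenitors, measured 1851 and 2048 in Atoh1-GFP replicates 1 and 2, against 2306 and 2599 in those of dNeurog1-GFP. Here too the populations did not overlap, and Phf10 had the largest average difference of the progenitor subunits, at -0.33 (standard error 0.22, interval -0.84 to 0.19, limma adjusted p = 0.88). Its differences within replicate 1 and replicate 2 were nearly equal, at -0.31 and -0.34. With the block the standard error was 0.11, the interval ran from -0.60 to -0.05 and the limma adjusted p was 0.16. In terms of fold on the log2(signal + 32) scale, the Atoh1-GFP level was 0.798 of the dNeurog1-GFP level.

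Ss18, a subunit that docks on the ATPase module and is replaced by Ss18l1 in neurons, gave signals of 3880 and 5402 in Atoh1-GFP cells, against 4531 and 5312 in dNeurog1-GFP cells. The higher arrays were those of replicate 2 in both populations, and the populations overlapped. Its difference was -0.10 (standard error 0.24, interval -0.66 to 0.46, limma adjusted p = 1.00), and its sign was not shared by the replicates, with -0.22 within replicate 1 and 0.02 within replicate 2.

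Of the neuronal subunits, Actl6b had the largest difference of all members. Actl6b, the neuron-specific paralogue of Actl6a, measured 295 and 306 in Atoh1-GFP replicates 1 and 2, against 123 and 219 in those of dNeurog1-GFP. The Atoh1-GFP arrays nearly coincided, and the spread lay in the dNeurog1-GFP arrays, of which replicate 1 was the lower. Its signal of 123 was near the median of all probe sets on that array (115), and detection calls were not used. The difference was 0.75, or 1.68-fold (standard error 0.34, interval -0.06 to 1.56, limma adjusted p = 0.64), with 1.07 within replicate 1 and 0.43 within replicate 2. With the block the interval ran from 0.15 to 1.35 and the limma adjusted p was 0.14. Of all genes tested, 91.8% had a smaller absolute difference than Actl6b. This rank takes no account of signal or spread, and the mean signal of Actl6b was only at percentile 27.6 of the genes tested. Without the replicate 1 array of dNeurog1-GFP cells the difference was 0.40.

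The other 3 neuronal subunits had smaller average differences, each with overlapping populations. Dpf1, a neuronal paralogue of Phf10, gave signals of 256 and 275 in Atoh1-GFP cells, against 225 and 286 in dNeurog1-GFP cells. The dNeurog1-GFP arrays lay on both sides of the Atoh1-GFP arrays, for a difference of 0.06 (standard error 0.28, interval -0.61 to 0.73, limma adjusted p = 1.00), with 0.17 and -0.05 within replicates 1 and 2. Dpf3, the other neuronal paralogue of Phf10, measured 163 and 86.0 in Atoh1-GFP replicates 1 and 2, against 128 and 79.8 in those of dNeurog1-GFP. Its arrays were ordered by replicate number more than by population: both replicate 1 arrays lay above both replicate 2 arrays, as did the medians of all probe sets. The difference of Dpf3 was 0.18, with the widest interval of the members, -0.93 to 1.30 (standard error 0.47, limma adjusted p = 1.00), and 0.29 and 0.08 within replicates 1 and 2.

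Ss18l1, the calcium-responsive transactivator that takes the place of Ss18 in neurons, gave signals of 709 and 904 in Atoh1-GFP cells, against 681 and 867 in dNeurog1-GFP cells. Within either replicate number the Atoh1-GFP array was higher by 0.06. This was also the average difference (standard error 0.26, interval -0.55 to 0.67, limma adjusted p = 1.00). With the block the interval narrowed to -0.28 to 0.40 for Ss18l1, to -0.44 to 0.56 for Dpf1 and to -0.43 to 0.79 for Dpf3, and the limma adjusted p-values were 0.84, 0.90 and 0.72.

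**Figure D2:**
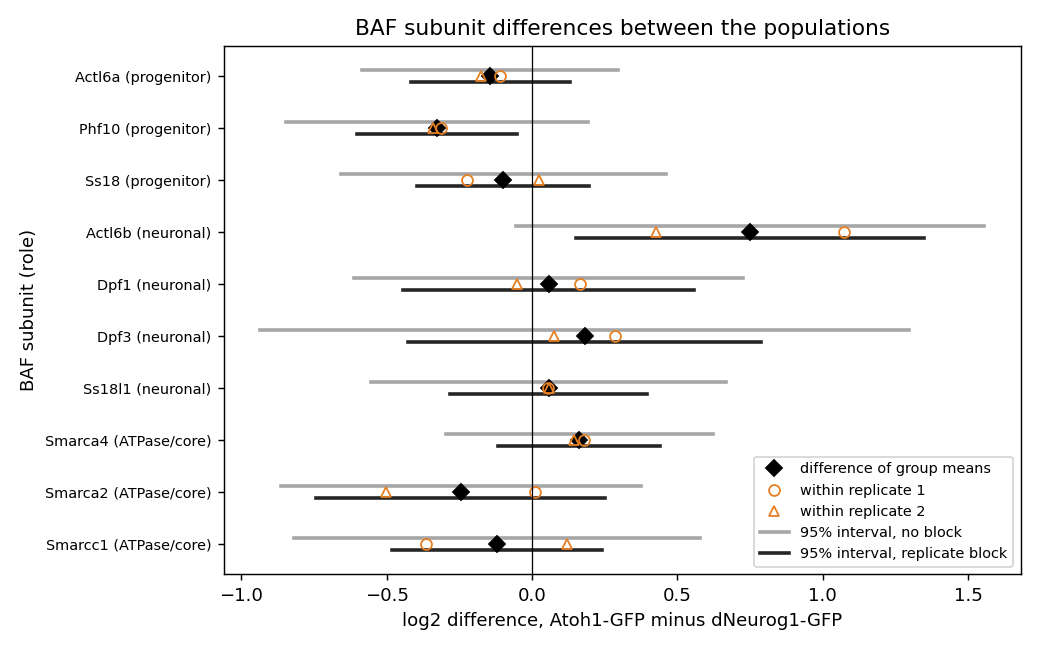
Log2 difference of each BAF member, Atoh1-GFP minus dNeurog1-GFP (diamonds), with the values within replicate 1 (circles) and replicate 2 (triangles) and 95% limma intervals without (grey) and with (black) the replicate block. The intervals without the block span 0 for all 10 members, and those with the block leave out 0 for Phf10 and Actl6b, neither of which passed after adjustment over all genes. An interval that leaves out 0 corresponds to an unadjusted p under 0.05, which 22.5% of all genes had with the block.

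The ATPases and the core subunit had differences on either side of 0. Smarca4, the BRG1 ATPase that drives remodelling in progenitors and neurons, measured 7440 and 8599 in Atoh1-GFP replicates 1 and 2, against 6569 and 7770 in those of dNeurog1-GFP. The Atoh1-GFP array was the higher one in both replicate numbers, by 0.18 and 0.15, although the populations overlapped across numbers. The average was 0.16 (standard error 0.19, interval -0.30 to 0.62, limma adjusted p = 1.00), and the block gave an interval of -0.12 to 0.44 and an adjusted p of 0.46.

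Smarca2, the alternative ATPase BRM, gave signals of 412 and 313 in Atoh1-GFP cells, against 408 and 457 in dNeurog1-GFP cells. The replicate 1 arrays differed by 0.01 and the replicate 2 arrays by -0.50, so the average of -0.24 (standard error 0.26, interval -0.86 to 0.37, limma adjusted p = 1.00) came from the replicate 2 arrays. Smarcc1, a scaffold subunit around which the complex assembles, measured 4023 and 7015 in Atoh1-GFP replicates 1 and 2, against 5185 and 6447 in those of dNeurog1-GFP. The 2 Atoh1-GFP arrays were the lowest and the highest of the 4, and the difference of -0.12 (standard error 0.29, interval -0.82 to 0.58, limma adjusted p = 1.00) combined -0.36 within replicate 1 with 0.12 within replicate 2. With the block, the limma adjusted p was 0.53 for Smarca2 and 0.68 for both Smarcc1 and Ss18.

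Counted by role, the 3 progenitor subunits had a median difference of -0.14 and all were below 0, and the 4 neuronal subunits had a median of 0.12 and all were above 0. Within each replicate number the order of these medians was kept: -0.22 against 0.23 in replicate 1 and -0.18 against 0.07 in replicate 2. These signs are not stable: Ss18 turned in 3 of the alternatives run, and Dpf1, Dpf3 and Ss18l1 in 2 each. The ATPases and the core subunit had a median of -0.12, with 1 above 0 and 2 below. Over all genes tested the median was 0.01, and 50.7% of them were above 0. The populations did not overlap for 1 member higher in Atoh1-GFP cells, Actl6b, where 15.9% of all genes were so, and for 2 members higher in dNeurog1-GFP cells, Actl6a and Phf10, where 18.8% of all genes were so. These shares of the members are close to the background.

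The exchange itself can be described as the log2 ratio of a neuronal to a progenitor subunit on each array, again with 32 added to each signal. Such a ratio of 2 probe sets has no meaning as a level, and only its difference between arrays is read here, as a description with no test. For Actl6b over Actl6a it was -4.03 and -3.91 on the Atoh1-GFP arrays, against -5.22 and -4.51 on the dNeurog1-GFP arrays. The ratio was thus higher on both Atoh1-GFP arrays than on either dNeurog1-GFP array, by 0.89 on average, with 1.18 within replicate 1 and 0.60 within replicate 2. Without dNeurog1-GFP replicate 1 it was 0.54.

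For Dpf1 over Phf10 the ratios were -2.71 and -2.76 in Atoh1-GFP cells, against -3.19 and -3.05 in dNeurog1-GFP cells, a difference of 0.38 (0.48 and 0.29 within replicates 1 and 2) with no overlap. For Dpf3 over Phf10 they were -3.27 and -4.14 against -3.87 and -4.56, a difference of 0.51 (0.60 and 0.42) with overlapping populations. This value rests on single arrays: it was 0.074 without Atoh1-GFP replicate 1, 0.94 without Atoh1-GFP replicate 2, 0.85 without dNeurog1-GFP replicate 1 and 0.16 without dNeurog1-GFP replicate 2. The 2 pairs with Phf10 share the Phf10 probe set and are not independent of each other. For Ss18l1 over Ss18 the ratios were -2.40 and -2.54 against -2.68 and -2.57, a difference of 0.16, of which 0.28 was seen within replicate 1 and 0.03 within replicate 2. For the ATPases, Smarca2 over Smarca4, they were -4.07 and -4.64 against -3.91 and -4.00, a difference of -0.41 (-0.17 and -0.65). All 4 neuronal-over-progenitor ratios were therefore higher in Atoh1-GFP cells in both replicate numbers, and the ATPase ratio was lower in both. In the pairs with Phf10 the larger part was the difference of Phf10 (-0.33), beside 0.06 for Dpf1 and 0.18 for Dpf3. In the actin-related pair it was that of Actl6b (0.75), beside -0.14 for Actl6a. How often the ratios of other gene pairs do not overlap was not computed. With the mean of a gene's probe sets in place of the brightest, Ss18l1 over Ss18 turned to -0.0085. Without Atoh1-GFP replicate 1 or 2, Smarca2 over Smarca4 was -0.69 or -0.12.

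**Figure D3:**
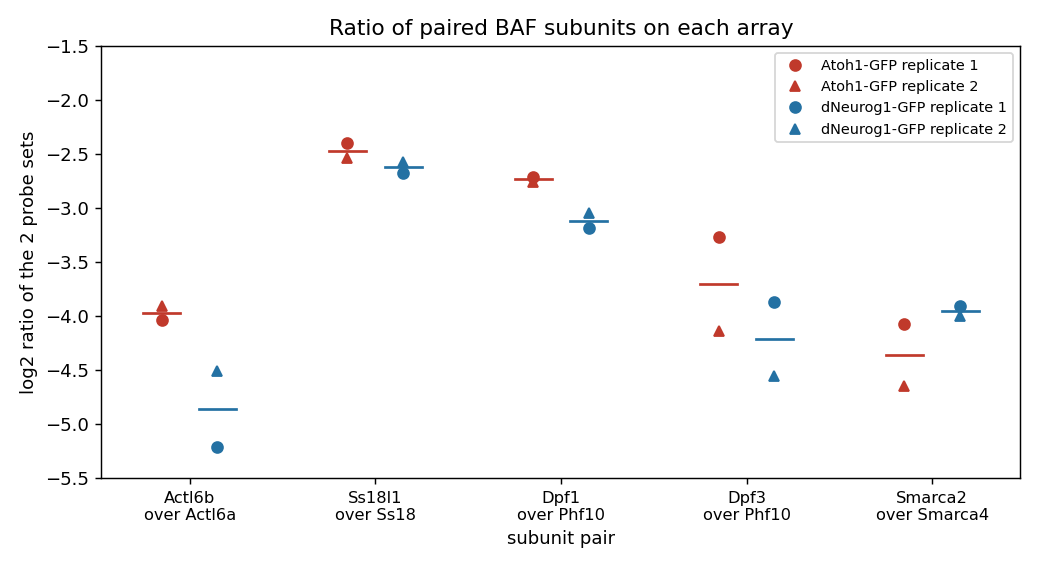
Log2 ratio of paired BAF subunits on each array, with circles for replicate 1, triangles for replicate 2 and a bar at each group mean. The Atoh1-GFP arrays lie above the dNeurog1-GFP arrays without overlap for Actl6b over Actl6a, Dpf1 over Phf10 and Ss18l1 over Ss18, and below them for Smarca2 over Smarca4. For Ss18l1 over Ss18 the nearest arrays of the 2 populations were at -2.54 and -2.57. The share of all gene pairs without overlap was not computed, so the lack of overlap is not read as a result.

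The members are covered by 23 probe sets, of which 20 lay above the filter and 3 below it. Of the 7 members with several probe sets above the filter, 3 (Phf10, Dpf1 and Dpf3) had average differences of a single sign, and 4 (Actl6a, Ss18, Smarca4 and Smarcc1) had both signs. The second probe set of Phf10, with signals of 417 and 537 in Atoh1-GFP cells against 618 and 719 in dNeurog1-GFP cells, gave a difference of -0.47 (-0.53 and -0.40 within replicates 1 and 2). Both Phf10 probe sets were therefore lower in Atoh1-GFP cells in both replicates, without overlap.

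For Actl6a the second brightest probe set gave -0.42 and the dimmest 0.01. The probe sets of Ss18 gave -0.10 and 0.23, those of Smarca4 0.16 and -0.11, and those of Smarcc1 -0.12, 0.07, 0.38 and 0.52. The sign of the difference of these 4 genes thus depends on the probe set chosen. Actl6b has 1 probe set on the array, so its difference has no second measurement there.

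**Figure D4:**
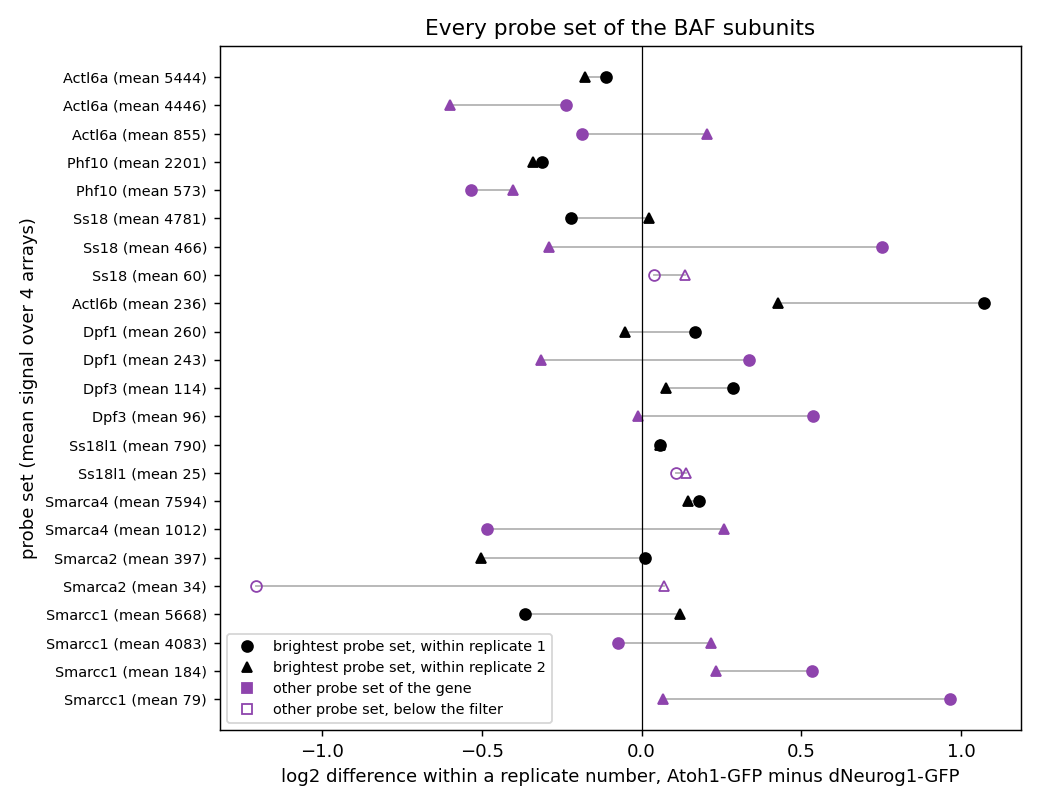
Log2 difference between Atoh1-GFP and dNeurog1-GFP cells within replicate 1 (circles) and replicate 2 (triangles) for all 23 probe sets of the BAF members, named by gene and mean signal. Black marks are the probe sets used, purple ones the others, and open symbols those below the filter. The Phf10 probe sets lie left of 0 in both replicates, and those of Smarcc1 and Ss18 spread over both sides.

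The other subunits of the complex were taken from a list of 21 genes, all of which were measured. None passed the threshold in either model, but 19 had a difference above 0 and 2, Smarcd3 (-0.07) and Bcl7b (-0.17), below it. Their median of 0.20 was much the same in each replicate number (0.20 and 0.18), and the differences ran from -0.17 to 0.47. In both replicate numbers 14 of the 21 were higher in Atoh1-GFP cells and 1 was lower, against 33.3% and 33.7% of all genes tested. The populations did not overlap for 9 of the 21 in the direction of Atoh1-GFP cells and for 0 in the other, against 15.9% and 18.8% of all genes tested. These differences rest on the brightest probe set of each gene at the main scaling. Other probe sets and scalings were not examined for this list, and among the members they turned several signs.

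The largest difference among these was that of Bcl11b, a zinc-finger transcription factor that is also a BAF subunit in neural and lymphoid cells. It measured 473 and 431 in Atoh1-GFP cells, against 308 and 328 in dNeurog1-GFP cells, a difference of 0.47 (limma adjusted p = 0.74, and 0.20 when blocked). Its relative Bcl11a had a difference of 0.38, with 2610 and 1877 against 2043 and 1401, where the replicate 1 arrays were the higher ones in both populations. Bcl7a, a small accessory subunit, had signals of 4468 and 4277 against 3466 and 3221, without overlap and with a difference of 0.38 (limma adjusted p = 0.73 and 0.11). Bicra, which marks the non-canonical form of the complex, had signals of 864 and 990 against 714 and 676, a difference of 0.40. Over all 31 BAF genes, members included, the median was 0.16 and 24 were above 0.

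ATPases of other remodelling families served as a list outside BAF. Of the 18 genes, all measured, 1 passed with the block: Hells, the helicase of lymphoid cells that acts in DNA methylation and is abundant in dividing cells, gave signals of 1911 and 2179 in Atoh1-GFP cells, against 4654 and 4723 in dNeurog1-GFP cells. Its difference was -1.19 (limma adjusted p = 0.10, and 0.0064 when blocked). The next in that direction was Chd1 at -0.42, and in the other direction Chd6 at 0.42 and Chd2 at 0.38 were the largest, none of which passed. The median of the list was 0.06, with 11 genes above 0 and 7 below.

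Markers of progenitors and of neurons also differed between the populations. Of 15 progenitor markers, 14 were measured (Ccnb1 was not), and with the block 5 were lower in Atoh1-GFP cells and 0 higher, at a median of -0.44 (-0.65 and -0.33 within replicates 1 and 2). Cdk1, the mitotic kinase, was lower by a difference of -0.71 (limma adjusted p = 0.023 with the block), as were the replication licensing gene Mcm5 (-0.75), the progenitor transcription factor genes Sox1 (-1.75) and Sox3 (-1.33) and the radial glial gene Fabp7 (-1.48). The proliferation genes Mki67 and Top2a had differences of -0.42 and -0.43 that did not pass. Of the 14 measured, 13 were below 0, among them Sox2 (-0.11) and Vim (-0.05), for which the populations overlapped. The other, Nes, was above 0 at 0.40 (0.78 and 0.02 within replicates 1 and 2), also with overlap. Of 15 neuron markers, all measured, 6 were higher and 1 lower with the block, at a median of 0.56 (0.79 and 0.32), and 10 had a difference above 0 and 5 below. Among those called higher, the tubulin gene Tubb3 was higher by 1.01, the microtubule-binding gene Dcx by 0.99 and the RNA-binding gene Elavl3 by 0.77 (limma adjusted p = 0.011, 0.040 and 0.025 with the block). Elavl4 had a difference of 0.56 that did not pass. The gene called lower was Nefm, a neurofilament gene, at -0.78 (limma adjusted p = 0.023 with the block), and Nefl (-0.71), Gap43 (-0.61), Rbfox3 (-0.59) and Mapt (-0.26) were also below 0 and did not pass. Without the block, 0 markers of either list passed.

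The summed level of the progenitor markers was 77558 and 70106 on the Atoh1-GFP arrays, against 113846 and 91349 on the dNeurog1-GFP arrays, and that of the neuron markers 68184 and 70118 against 45819 and 61869. The populations did not overlap in either sum, and the neuron markers were lowest on the replicate 1 array of dNeurog1-GFP cells, where Actl6b was also lowest. The part of these differences in cell state in the values of the BAF subunits was not tested.

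**Figure D5:**
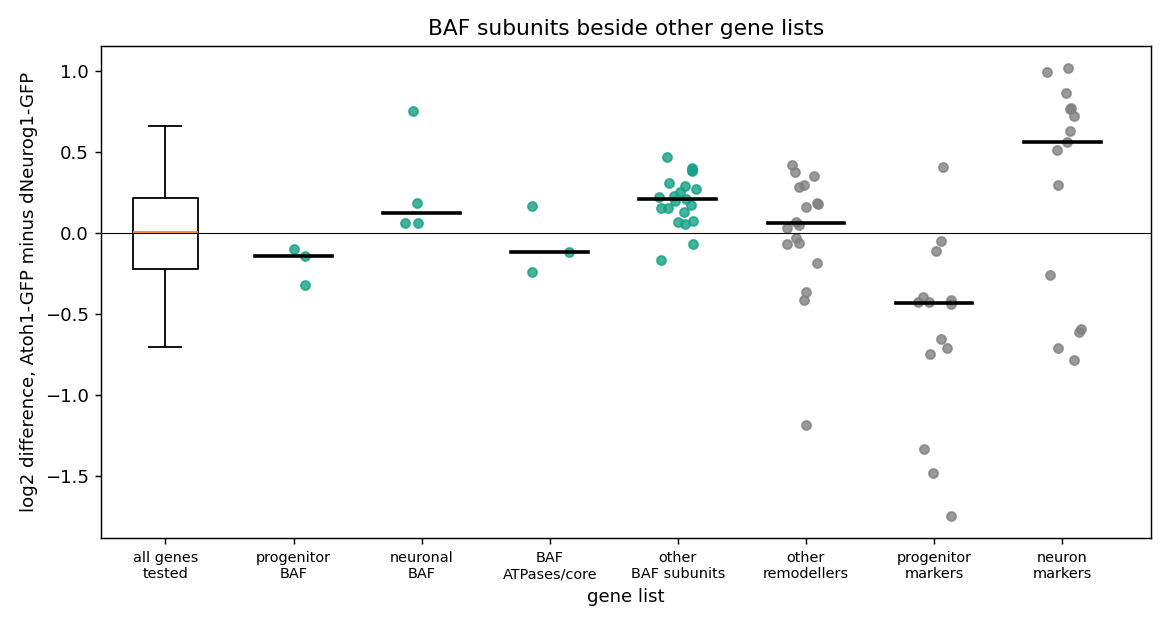
Log2 differences, Atoh1-GFP minus dNeurog1-GFP, of the genes in each list, with a bar at the list median. The box at the left shows all 12740 genes tested (quartiles, with whiskers at the 5th and 95th percentiles). The progenitor subunits lie just under 0, the neuronal subunits and 19 of the 21 other BAF subunits above it, and progenitor and neuron markers have medians of -0.44 and 0.56.

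The signals of markers of other cells varied between arrays. Detection calls were not used, so a signal alone does not show that such cells were present. Some signals were far under the filter value of 63.5, such as those of Olig2 on the Atoh1-GFP arrays (3.82 and 7.44). The 6 measured blood and endothelial markers summed to 25004 and 25979 on the Atoh1-GFP arrays, against 6994 and 19261 on the dNeurog1-GFP arrays, with a median difference of 1.04 and 0 of 6 called. The 5 ventral and motor neuron markers summed to 883 and 739 against 2390 and 7072, and with the block 2 of 5, Olig2 (-2.57) and Isl1 (-2.34), were lower in Atoh1-GFP cells. Most of each sum was Isl1 (640 and 566 against 1946 and 5163), so it is not read as a share of ventral or motor neurons. The 7 mesenchyme and muscle markers summed to 5255 and 3708 against 2721 and 5965, with 0 of 7 called. The 3 genes listed as neural crest markers summed to 2073 and 2720 against 3090 and 4364, with 1 of 3, Tfap2a (-2.74), lower in Atoh1-GFP cells in either model. Pou4f1 gave 1557 and 2386 against 1281 and 2119, and Sox10 only 218 and 116 against 142 and 101. On the Atoh1-GFP arrays the sum was thus mostly Pou4f1, and it is not read as a share of neural crest cells. The replicate 1 array of dNeurog1-GFP cells, which set the low end for Actl6b, had the lowest blood and endothelial sum. Most of that sum came from the globin genes Hbb-y and Hbb-bh1 (5247 and 1315 on that array). Of the endothelial genes, Cdh5 was lowest there (86.1). Pecam1, Kdr and Tek were instead lowest on the replicate 2 array of dNeurog1-GFP cells (11.1, 141 and 42.9). The part of these cells in the BAF values was not tested.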

How the data were processed

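The deposited values are MAS5 signal intensities of 4 Affymetrix arrays on a linear scale. MAS5 is named in the submitters' processing notes without a version or scaling target. The number of arrays limits the precision.

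Each array was multiplied to a trimmed mean of 500 (2% left out at each end), since the deposited trimmed means differed by replicate number. The 64 control probe sets were left out of 45101, probe sets under the 40th percentile of mean signal (63.5) were removed, which left 27022, and the brightest probe set stood for each gene. Symbols came from the platform annotation, and 34741 of 34945 single-symbol probe sets matched the reference table by gene identifier. Differences of log2(signal + 32) were tested with limma 3.58.1 (lmFit, eBayes with trend) in R 4.3.3 and Benjamini-Hochberg adjustment, without a block. The blocked model (replicate number as a term), planned as an alternative, is given beside it because the scaling target follows that number. The deviations of replicates 1 and 2 correlated between the populations across genes (r = 0.66, genes not being independent replicates). The labels do not say that equal numbers share a litter or day. Residual degrees of freedom were 2 without and 1 with the block, against median prior values of 4.92 and 5.11, so the p-values rest largely on the spread shared across genes. The code was tested on simulated data.

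Members and lists were chosen with earlier results of these data known. Named were all members, the 4 other BAF subunits with the largest absolute difference, the 2 remodeller ATPases with the largest difference in each direction, and the markers listed first. Smarcd3, Bcl7b, Mcm5, Sox1, Sox3, Fabp7, Nefm, Nefl, Gap43, Rbfox3, Mapt, Olig2, Isl1 and Tfap2a were added after their values were seen. So were Sox2, Vim, Nes, Hbb-y, Hbb-bh1, Pecam1, Cdh5, Kdr, Tek, Sox10 and Pou4f1. The alternatives were the deposited scale, quantile and 75th percentile scaling, other pseudocounts and filters, the mean of a gene's probe sets, no trend, and leaving out each array.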

Additional observations from a re-analysis of the deposited data

How the results depend on the processing

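Over the alternatives run, 0 of the 10 BAF members passed the threshold (limma adjusted p), and the lowest adjusted p of a member was 0.14, for Actl6b with the replicate block. Actl6b, Phf10, Actl6a, Smarca4 and Smarca2 kept their sign in all 14 alternatives. The filters, the block and the fit without trend left these differences unchanged, so no sign could turn there. Actl6b lay between 0.40 and 1.10 and Phf10 between -0.41 and -0.24. Actl6a lay between -0.18 and -0.10, Smarca4 between 0.03 and 0.28 and Smarca2 between -0.43 and -0.06. No alternative put a dimmer probe set alone in place of the brightest. A dimmer one gave 0.01 for Actl6a and -0.11 for Smarca4. Actl6b and Smarca2 had no second probe set above the filter. Dpf1 turned to -0.018 with quantile normalization, and with the mean of a gene's probe sets Ss18 turned to 0.066 and Smarcc1 to 0.21. Leaving out 1 array gave -0.10 to 0.21 for Dpf1, -0.18 to 0.54 for Dpf3, -0.11 to 0.23 for Ss18l1, -0.34 to 0.14 for Ss18 and -0.52 to 0.28 for Smarcc1. The cause of these turns was not tested. Dpf3 was not tested under the 60th percentile filter.

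The count of genes called, 28, was 829 with the replicate block, 13 on the deposited scale (1 of them among the 28), 18 with the 75th percentile, 14 without a filter, 18 with the 60th percentile filter and 14 with the mean of probe sets. It was 0 without the trend (978 at an unadjusted p under 0.05), and it ranged from 153 to 380 when 1 array was left out, where a lone array was assumed to vary like the other group. The highest count was without Atoh1-GFP replicate 1. Of the calls, 57.1% were higher in Atoh1-GFP cells, against 7.69% on the deposited scale, 38.9% with the 75th percentile and 42.7% with the block.

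With 2 arrays per group, differences of the size seen for most members lie within the intervals given and could not be resolved.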
